A study of Mus musculus with 10 samples.

Results

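The neurotrophins and their receptors were examined in hippocampal bulk RNA-seq of female mice given an androgen. The 7 genes, taken by name from a table of 56884 genes, were the ligands Bdnf and Ntf3, the receptors Ntrk2, Ntrk3 and Ngfr, the sorting receptor Sort1, and Vgf, a secreted peptide precursor induced by neurotrophins. The 10 mice were P301S females (the PS19 line on a B6;C3 background), in which the mouse Prnp promoter drives human 1N4R Tau with the P301S mutation, so the void group carried the transgene too and no mice without it were compared. At 6 months of age, 5 mice received SILASTIC tubing packed over 10 mm with dihydrotestosterone (DHT), an androgen that aromatase cannot turn into estrogen, and 5 received a void implant. The females kept their ovaries. Hippocampus was taken after 12 weeks, at 9 to 9.5 months, and each mouse gave 1 mRNA library.

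Neurotrophins are secreted growth factors that act on neurons. BDNF binds TrkB (the product of Ntrk2) and NT3 (the product of Ntf3) binds TrkC (Ntrk3). Both Trk receptors are tyrosine kinases that signal through the MAP kinase, PI3 kinase and phospholipase C gamma routes to support survival, growth and synaptic plasticity. The unprocessed proneurotrophins bind p75 (Ngfr) together with sortilin (Sort1), a pairing known for promoting cell death and synaptic weakening. In the hippocampus, BDNF made by excitatory neurons is known for its part in long-term potentiation, and astrocytes carry a truncated TrkB that lacks the kinase.

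Total counts ranged from 27188854 to 47113661 in void-treated mice and from 33523527 to 45947784 in DHT-treated mice. Markers of the labelled tissue were present: all 14 markers of hippocampal excitatory neurons had enough counts to be tested, and their summed level was 2225 to 2717 CPM with void and 2067 to 2776 CPM with DHT. CPM here are counts scaled to a common library size by the TMM method. Markers of 2 other cell types were higher in every DHT-treated mouse: the summed level of 16 microglial markers was 564 to 660 CPM with void and 793 to 1196 CPM with DHT, and that of 12 choroid plexus markers was 360 to 3273 CPM with void and 3911 to 5744 CPM with DHT. Void libraries all held earlier positions in the numbering than DHT libraries, and the effect of that order cannot be told apart from that of treatment. In the libraries of DHT-treated mice 5 and 6, counts rose with the GC content of genes more steeply than in the other 8 (log2 slopes of 0.18 and 0.29 per 10 percentage points of GC, against -0.14 to 0.14). The nearest to them was void-treated mouse 9 at 0.14.

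None of the 7 genes passed the test for a change with DHT. All 7 had enough counts to be tested among 17622 genes, and 0 were called higher and 0 lower at a Benjamini-Hochberg adjusted p under 0.05 in edgeR's quasi-likelihood test. Of all genes tested, 5.22% were called higher and 0.261% lower, and 0 of 7 lies near these shares. With the added limit of a log2 fold change beyond 1, 2.19% of all genes passed. At an unadjusted p under 0.05 the members counted 1, Ngfr, and 17.4% of all genes tested passed that limit. DESeq2 and limma-voom also called 0 members. The levels of void- and DHT-treated mice overlapped for every member, while 6.27% of all genes tested had groups that did not overlap. The intervals of the differences, given with each gene, show how large a change these 10 mice could have hidden.

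**Figure D1:**
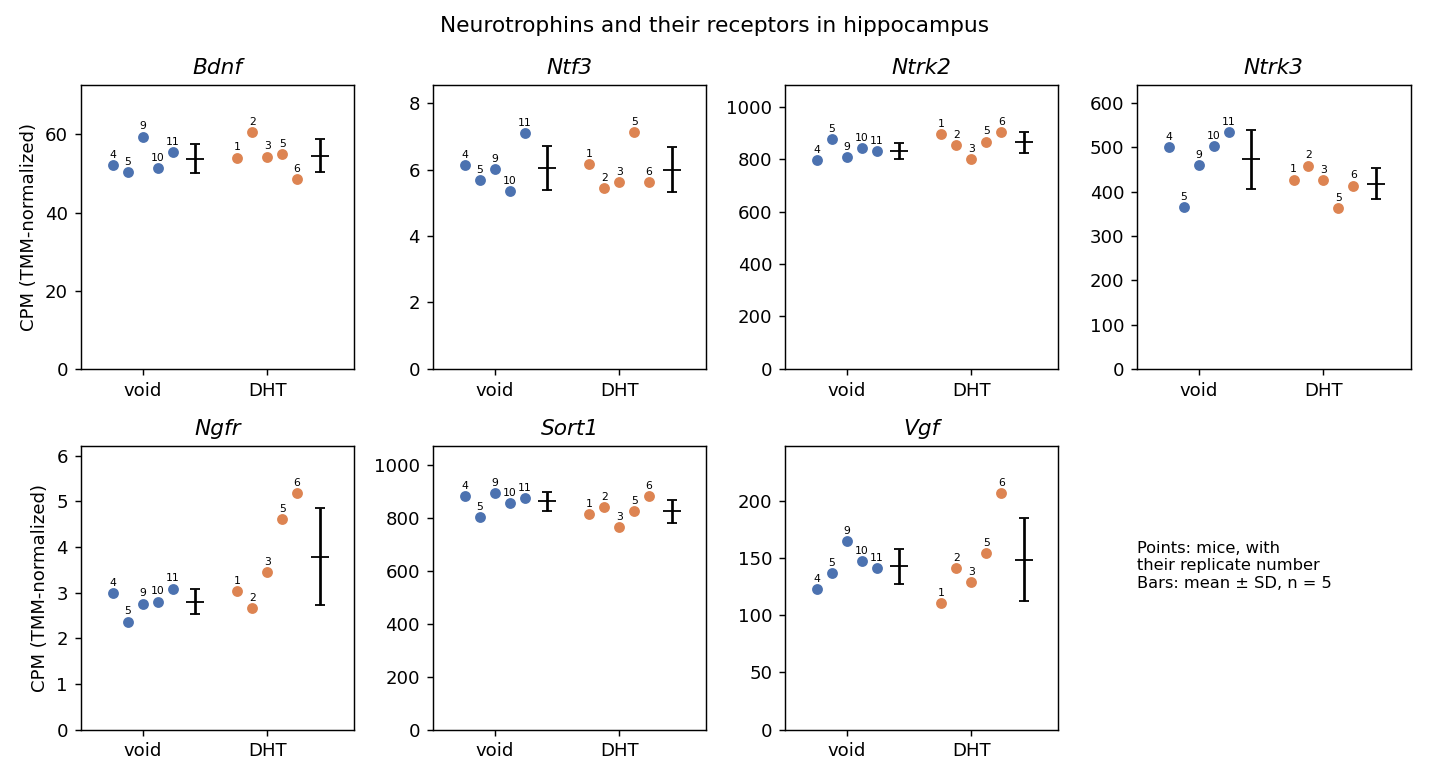
Level of the 7 genes in each mouse, in TMM-normalized CPM on axes that start at 0, with void-treated mice in blue, DHT-treated mice in orange and the replicate number beside each point. The black bars give the mean ± SD of 5 mice. The groups overlap in all 7 panels, and mice 5 and 6 of the DHT group lie highest for Ngfr, at 4.61 and 5.18 CPM.

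Between genes, levels were compared per kilobase of exon sequence (CPM per kb, over the union of all annotated exons). Sort1 was highest with 112 ± 5.53 CPM per kb (SD over 10 mice), followed by Vgf with 49.0 ± 8.90 and Ntrk2 with 43.9 ± 1.99. The ranges of Vgf and Ntrk2 over the mice overlapped, and those of all other neighbours in this order did not. Ntrk3 followed with 14.7 ± 1.91, Bdnf with 8.70 ± 0.61, Ntf3 with 3.52 ± 0.37 and Ngfr with 0.956 ± 0.26 CPM per kb. Both Trk receptors stood above its main ligand in CPM per kb. Long untranslated exons and exons of rare transcripts lower a value on this scale, which weighs on Ntrk3 with 30.2 kb and Ntrk2 with 19.3 kb of annotated exon more than on Ntf3 with 1.71 kb.

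Bdnf (ENSMUSG00000048482) encodes brain-derived neurotrophic factor and is transcribed from several promoters, which a count per gene adds together. The upstream sequence shown here is the 1 of 7 RefSeq promoter windows of Bdnf that holds the motif CGTCA or TGACG (searched on both strands), the core of the site that the activity-dependent factor CREB is known to bind. It is printed to put the promoter beside the measured Bdnf level and that of activity-regulated genes. The 100 bases end just before a transcript start on the forward strand at chr2:109692336-109692435 (GRCm38.p6, RefSeq), with the motif in capitals at positions -35 to -31 from the start.
Bdnf upstream sequence: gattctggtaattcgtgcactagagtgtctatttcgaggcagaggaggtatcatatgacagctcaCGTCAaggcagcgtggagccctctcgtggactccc
Windows of 300 bases (250 before to 50 after the start) were given for 4 of the 7 genes, 11 windows in all. The motif was in 1 of them and in 20.8% of the 32851 mouse windows used, from which 1 chromosome was left out. The longer form TGACGTCA was in none of the 11 and in 1.79% of the 32851. A match describes the letters of a window and not binding.

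In void-treated mice 4, 5, 9, 10 and 11, Bdnf was at 52.2, 50.4, 59.4, 51.3 and 55.4 CPM. In DHT-treated mice 1, 2, 3, 5 and 6 it was at 54.0, 60.5, 54.3, 54.9 and 48.6 CPM. The highest and the lowest of the 10 mice were both DHT-treated, and the groups covered almost the same range. The means were 53.7 ± 3.69 CPM with void and 54.5 ± 4.23 CPM with DHT (SD, n = 5 each). The log2 fold change was 0.02 (SE 0.07, adjusted p = 0.933, edgeR's quasi-likelihood test), and its 95% interval ran from 0.914-fold to 1.13-fold. Its sign depended on the scaling, and with DESeq2 the value was -0.00605. Genes on the opposite strand overlap Bdnf (Gm45346), Ntrk2 (Gm47423, 4930415C11Rik and Gm34245), Ntrk3 (4921513I08Rik and Gm9885) and Sort1 (Gm12523). Since the handling of strand in the authors' counting is not stated, reads of these genes and their partners cannot be told apart. Genes on the same strand also overlap Ntrk2 (C630044B11Rik), Ntrk3 (Gm44607 and Gm39038) and Sort1 (Gm43099), and strand does not separate these.

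Ntf3 (ENSMUSG00000049107), the gene of neurotrophin 3, was the lower of both ligands, with 145 to 290 counts per library. It was at 6.13, 5.69, 6.02, 5.35 and 7.10 CPM in void-treated mice 4, 5, 9, 10 and 11. In DHT-treated mice 1, 2, 3, 5 and 6 it was at 6.17, 5.45, 5.61, 7.12 and 5.63 CPM. In each group 1 mouse was near 7.1 CPM and the other 4 lay between 5.35 and 6.17 CPM. A log2 fold change of -0.02 was fitted (SE 0.11, adjusted p = 0.968, edgeR's quasi-likelihood test), with a 95% interval from 0.836-fold to 1.17-fold.

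Ntrk2 (ENSMUSG00000055254) encodes TrkB, and its count adds the kinase form, used mainly by neurons, to the truncated form of astrocytes. Void-treated mice 4, 5, 9, 10 and 11 had 796, 876, 809, 843 and 830 CPM. DHT-treated mice 1, 2, 3, 5 and 6 had 897, 853, 802, 867 and 903 CPM. Mice 1 and 6 of the DHT group were above all void-treated mice, and the other 3 lay within the void range. The log2 fold change was 0.06 (SE 0.05, adjusted p = 0.663, edgeR's quasi-likelihood test; two-sided exact permutation test, p = 0.183), with a 95% interval from 0.962-fold to 1.13-fold. This was the steadiest member: the SD of log2 CPM within groups was 0.06, and 3.59% of all genes tested had an SD as low or lower. Of 12 astrocyte markers, 1 was called higher and 0 lower (shares over all genes tested, 5.22% and 0.261%), with a median log2 fold change of 0.09. The marker called was Gfap, the intermediate filament gene that rises in reactive astrocytes, whose values with DHT all exceeded those with void (log2 fold change 1.18, adjusted p = 0.00761, edgeR's quasi-likelihood test). The glutamate transporter gene Slc1a2, another astrocyte marker, had a log2 fold change of -0.04 (95% interval -0.26 to 0.18). In bulk tissue, fewer cells of a type and less RNA per cell cannot be told apart. The part of astrocyte state in the level of Ntrk2 was not tested.

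Ntrk3 (ENSMUSG00000059146), the gene of TrkC, had the lowest log2 fold change of the 7. It was at 501, 365, 460, 503 and 534 CPM in void-treated mice 4, 5, 9, 10 and 11. It was at 427, 459, 425, 362 and 413 CPM in DHT-treated mice 1, 2, 3, 5 and 6. Of the void group, 4 mice were at 460 CPM or more, above every DHT-treated mouse, but void-treated mouse 5 was near the lowest of all. The means were 472 ± 65.7 CPM with void and 417 ± 35.1 CPM with DHT (SD, n = 5 each). The log2 fold change was -0.18 (SE 0.10, adjusted p = 0.399, edgeR's quasi-likelihood test; two-sided exact permutation test, p = 0.151), and the 95% interval ran from 0.762-fold to 1.02-fold. Without void-treated mouse 5 the log2 fold change was -0.26 (adjusted p = 0.0714, edgeR's quasi-likelihood test), which also missed the threshold. The value was nearer to 0 with scaling on neuron markers (-0.07) and without DHT-treated mice 5 and 6 (-0.11).

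Ngfr (ENSMUSG00000000120) encodes p75, the receptor that all neurotrophins share, and was the scarcest of the 7 with 74 to 174 counts per library. Void-treated mice 4, 5, 9, 10 and 11 had 2.98, 2.36, 2.76, 2.80 and 3.09 CPM. DHT-treated mice 1, 2, 3, 5 and 6 had 3.03, 2.66, 3.46, 4.61 and 5.18 CPM. Mice 3, 5 and 6 of the DHT group exceeded the void range, and mice 1 and 2 lay within the void range. The means were 2.80 ± 0.28 CPM with void and 3.79 ± 1.07 CPM with DHT (SD, n = 5 each). The log2 fold change was 0.43 (SE 0.18, 95% interval 1.02-fold to 1.78-fold), the highest of the 7, and it did not pass the test across all genes (adjusted p = 0.243, edgeR's quasi-likelihood test; two-sided exact permutation test, p = 0.0873).

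The highest Ngfr values were those of DHT-treated mice 5 and 6, whose libraries had the steepest GC slopes. Leaving out its highest values lowers the mean of a group whatever their GC slope. Without DHT-treated mice 5 and 6 together the log2 fold change of Ngfr was 0.12 (adjusted p = 0.688, edgeR's quasi-likelihood test). With offsets for GC content in every library the log2 fold change was 0.34 (adjusted p = 0.149, edgeR's quasi-likelihood test). The main fit gave 0.43 (adjusted p = 0.243, the same test). The gene is rich in GC, at 58.6% in its longest transcript, more than 92.3% of the genes compared. Across the 10 libraries, with group means removed, its level went with the GC slope of the library with a Pearson r of 0.74, a description over libraries that share their preparation. Whether the GC slope accounts for the values of these mice was not tested.

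Sort1 (ENSMUSG00000068747) encodes sortilin, which carries proBDNF through the secretory route and joins p75 at the surface. It was at 884, 805, 895, 858 and 876 CPM in void-treated mice 4, 5, 9, 10 and 11. It was at 817, 841, 765, 826 and 884 CPM in DHT-treated mice 1, 2, 3, 5 and 6. Mouse 3 of the DHT group was the lowest of the 10, and the other 4 were within the void range. Sort1 had a log2 fold change of -0.06 (SE 0.05, adjusted p = 0.637, edgeR's quasi-likelihood test), with a 95% interval from 0.882-fold to 1.04-fold. With Ntrk2 it had the narrowest interval of the 7, and 5.49% of all genes tested varied as little or less within groups.

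Vgf (ENSMUSG00000037428) is induced by neurotrophins and neuronal activity and encodes a precursor of secreted peptides. Void-treated mice 4, 5, 9, 10 and 11 had 123, 137, 165, 147 and 141 CPM. DHT-treated mice 1, 2, 3, 5 and 6 had 111, 141, 129, 154 and 207 CPM. The lowest and the highest mouse were both DHT-treated, and mouse 6 stood above the other 9. Vgf had a log2 fold change of 0.06 (SE 0.14, adjusted p = 0.902, edgeR's quasi-likelihood test), with a 95% interval from 0.840-fold to 1.29-fold. Without DHT-treated mouse 6 the log2 fold change was -0.09, and without mice 5 and 6 it was -0.17, neither past the threshold. At 64.1% GC, more than 99.4% of the genes compared, Vgf went with the GC slope of the library more closely than any other member (Pearson r of 0.87 over 10 libraries, group means removed).

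**Figure D2:**
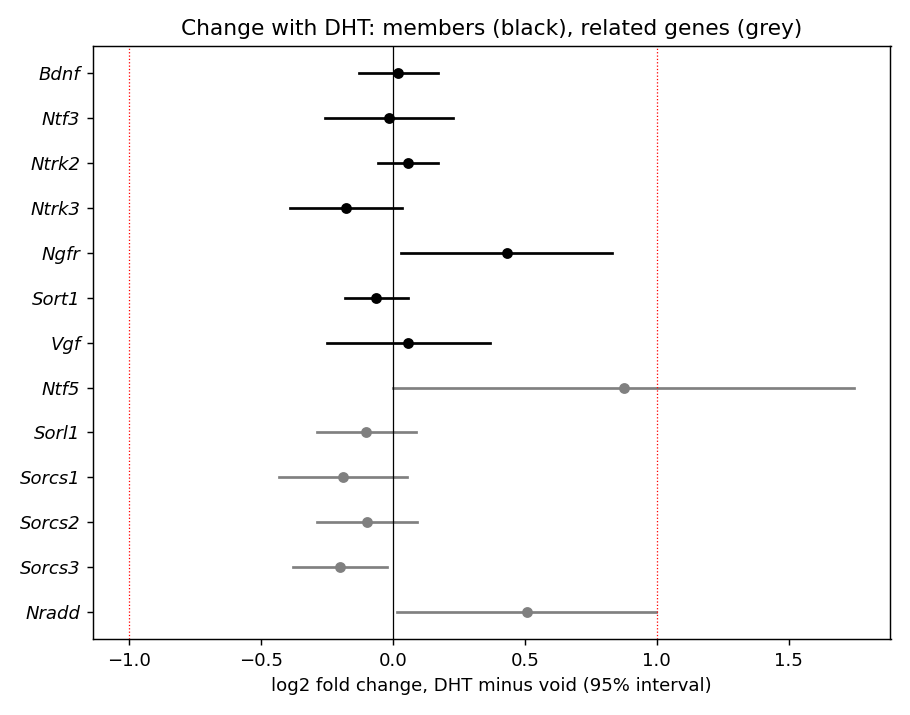
Log2 fold change of DHT- against void-treated mice with its 95% interval from edgeR's quasi-likelihood fit, for the 7 members in black and 6 related genes in grey, with dotted lines at a log2 fold change of 1 in either direction. The members other than Ngfr have intervals that include 0, and that of Ngfr runs from 0.03 to 0.83. Among the related genes, the intervals of Ntf5, Nradd and Sorcs3 exclude 0, and those of Sorl1, Sorcs1 and Sorcs2 include it. The intervals are not adjusted for the number of genes tested.

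**Figure D3:**
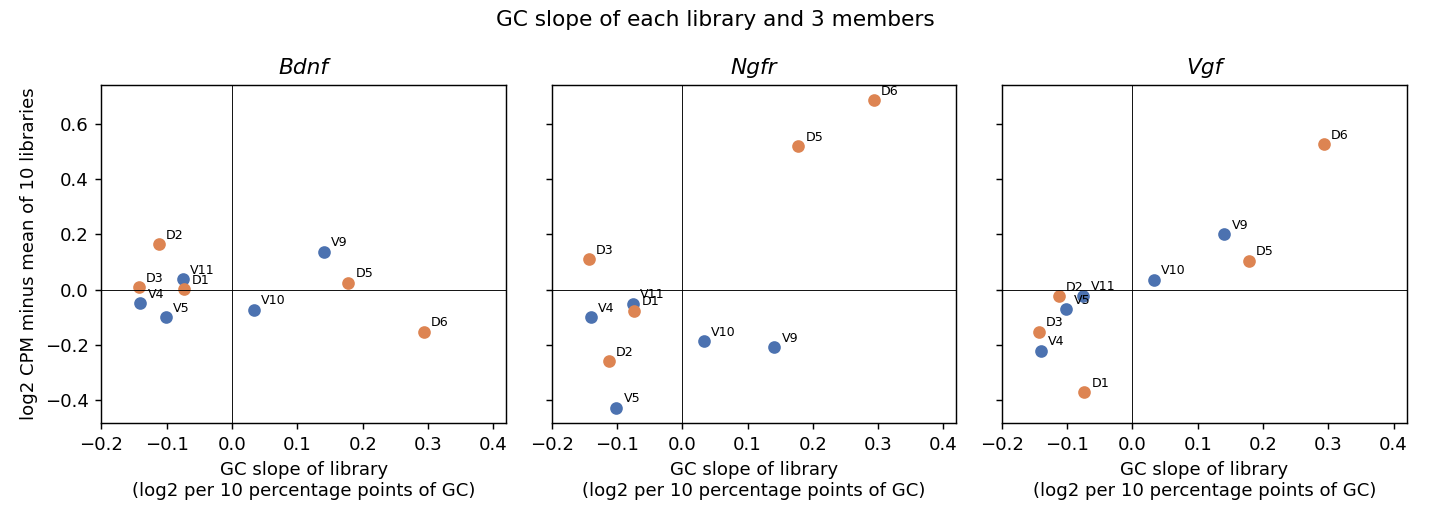
Log2 CPM of Bdnf, Ngfr and Vgf in each library, less the mean of the 10 libraries, against the slope of log2 level on GC content in that library (V, void; D, DHT; the number is the replicate). D5 and D6 have the steepest slopes, 0.18 and 0.29, and the highest Ngfr, while D6 has the lowest Bdnf and the highest Vgf.

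Ratios within a mouse do not depend on scaling between libraries, and were given no test. They do not remove the GC slope of a library where the paired genes differ in GC content. Vgf is at 64.1% and Bdnf at 40.9% GC, and Ngfr is at 58.6% and Ntrk2 at 48.6%. The libraries of DHT-treated mice 5 and 6 had the steepest GC slopes, and the part of these slopes in the ratios was not tested. The log2 ratio of Bdnf to Ntrk2 was -4.12 to -3.77 with void and -4.21 to -3.82 with DHT, and the DHT range covered nearly all of the void range. The ratio of Ntf3 to Ntrk3 was -6.54 to -5.99 with void and -6.38 to -5.66 with DHT. That of Vgf to Bdnf was 1.24 to 1.52 with void and 1.04 to 2.09 with DHT, where DHT-treated mice 1 and 6 gave both ends. The ratio of Ngfr to Ntrk2 was -8.50 to -8.03 with void and -8.29 to -7.43 with DHT, where DHT-treated mice 3, 5 and 6 exceeded the void range. All 4 ratios overlapped between the groups.

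Bdnf and Vgf are both known as targets of neuronal activity, so their spread over mice was set beside that of 25 activity-regulated genes. The highest of the 10 mice exceeded the lowest by 1.25-fold for Bdnf and 1.86-fold for Vgf. The transcription factor genes Fos and Npas4 spanned 9.71-fold and 6.50-fold, and Arc, which encodes a synaptic capsid-like protein, spanned 3.92-fold. Other genes of the list spanned less than Vgf, among them Egr3 with 1.27-fold, Jun with 1.43-fold and Crem with 1.46-fold. Fos was at 4.58 to 44.5 CPM in void-treated mice and 6.97 to 31.9 CPM in DHT-treated mice, with void-treated mice 11 and 5 at the lower and upper end. In those mice Bdnf was at 55.4 and 50.4 CPM, the higher Bdnf value being in the mouse with the lower Fos. The order was the reverse in DHT-treated mice 2 and 6 (Bdnf 60.5 and 48.6 CPM, Fos 24.9 and 14.4 CPM). A relation over the 10 mice was not tested. Over all genes tested, 52.4% had a positive log2 fold change. None of the 25 activity-regulated genes was called, 3 had a positive and 22 a negative log2 fold change, and their median was -0.15 against 0.01 over all genes tested. With DESeq2, with upper-quartile factors and with GC offsets, 1 was positive and 24 negative. With scaling on neuron markers, which moved the median of all genes to 0.11, 10 were positive and 15 negative. The members of the list with the lowest p were Nr4a2, a nuclear receptor gene (log2 fold change -0.38, adjusted p = 0.233), and Fosl2, an AP-1 subunit gene (-0.29, adjusted p = 0.264, both edgeR's quasi-likelihood test).

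**Figure D4:**
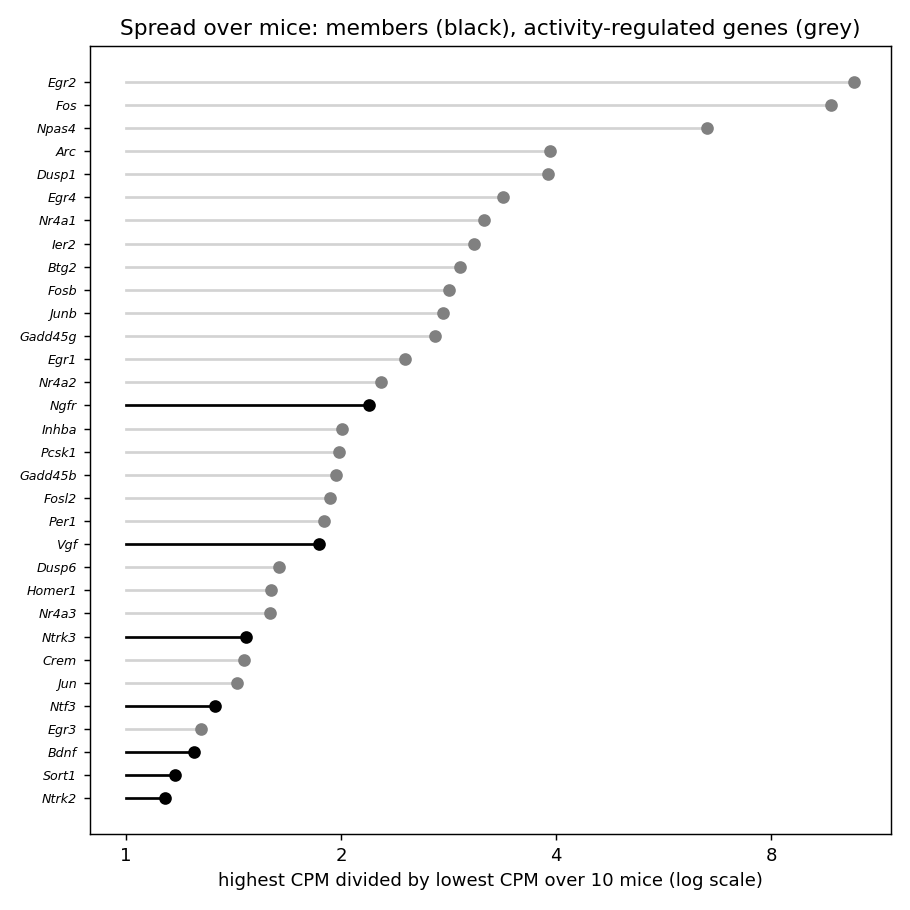
Highest CPM divided by the lowest over the 10 mice, on a log axis, for the 7 members in black and 25 activity-regulated genes in grey. Ntrk2, Sort1 and Bdnf are at the bottom with 1.13, 1.17 and 1.25, and Egr2 and Fos at the top with 10.4 and 9.71.

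Further genes related to the members were read from the same fit, and none of the 6 given here was called. Ntf5, the gene of neurotrophin 4, had 5 to 29 counts per library and a log2 fold change of 0.87 (adjusted p = 0.287, edgeR's quasi-likelihood test), where void-treated mouse 9 with 0.651 CPM exceeded every DHT value. Nradd, which encodes a p75-like membrane protein, was similarly scarce at 8 to 37 counts (log2 fold change 0.51, adjusted p = 0.270, edgeR's quasi-likelihood test; two-sided exact permutation test, p = 0.0317). It was at 0.295 to 0.639 CPM with void and 0.592 to 1.01 CPM with DHT, with 4 DHT-treated mice above all void-treated mice. The sorting receptors related to sortilin all had negative values: Sorl1 -0.10, Sorcs1 -0.19, Sorcs2 -0.10 and Sorcs3 -0.20 on the log2 scale. With DESeq2 these values were -0.13, -0.22, -0.13 and -0.23, with the lowest adjusted p of these genes at 0.0691 for Sorcs3 (DESeq2). Scaling on neuron markers, which moved the median of all genes to 0.11, took them to 0.00248, -0.09, -0.00122 and -0.10. Sorcs3 was at 62.7 to 75.3 CPM with void and 51.6 to 68.6 CPM with DHT, with 3 DHT-treated mice below all void-treated mice (adjusted p = 0.216, edgeR's quasi-likelihood test; two-sided exact permutation test, p = 0.0476).

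Of 38 Trk signalling genes (adaptors, Ras and MAP kinase, PI3 kinase and CREB routes), 1 rose and 0 fell, with a median log2 fold change of -0.01 against 0.01 over all genes. The shares over all genes tested were 5.22% higher and 0.261% lower, so 1 call among 38 genes is no more than the share over all genes. The gene that rose was Rps6ka1, which encodes RSK1, a kinase activated by ERK. It was at 13.4 to 17.1 CPM with void and 16.6 to 22.2 CPM with DHT, and 4 of the 5 DHT values exceeded the void range. Its log2 fold change was 0.41 (SE 0.10, adjusted p = 0.0384, edgeR's quasi-likelihood test), but the call was lost (adjusted p up to 0.143) when void-treated mouse 4, 5 or 11 or DHT-treated mouse 1, 3, 5 or 6 was left out. Scaling on neuron markers called Gab1, a docking protein gene, higher as well (0.31). Of 16 partners of p75, 0 were called, with a median of 0.04, while DESeq2 called Zfp369 lower (log2 fold change -0.21, adjusted p = 0.0171). Scaling on neuron markers called Psenen and Aph1a, genes of the gamma-secretase complex, higher (0.30 and 0.32). In the edgeR fit the partners with the lowest p were Zfp369, a zinc finger gene whose 5 DHT values were all below the void range (-0.19, adjusted p = 0.107), and Adam17, the sheddase that cuts p75 (0.34, adjusted p = 0.138, both edgeR's quasi-likelihood test).

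Sortilin binds many ligands, and 6 of them, Bdnf included, were listed. All 6 had positive values with a median of 0.16, though only 4 did with DESeq2, and 1 rose. Over all genes tested, 52.4% had a positive value and 5.22% were called higher. Apoe was called higher as well with DESeq2 and with library size alone, and both Psap and Apoe with scaling on neuron markers and with GC offsets. The gene that rose was Grn, which encodes progranulin, a lysosomal and secreted protein that sortilin takes up. It was at 44.0, 51.4, 53.0, 54.7 and 50.4 CPM in void-treated mice 4, 5, 9, 10 and 11. It was at 90.4, 61.6, 85.0, 87.5 and 91.4 CPM in DHT-treated mice 1, 2, 3, 5 and 6. Every DHT value exceeded the highest void value, with DHT-treated mouse 2 nearest to it. Grn had a log2 fold change of 0.71 (SE 0.10, adjusted p = 0.00671, edgeR's quasi-likelihood test). The log2 ratio of Grn to Sort1 within a mouse was -4.33 to -3.97 with void and -3.77 to -3.17 with DHT, a ratio chosen after the values were seen. Of the 16 microglial markers, 9 were called higher in the same mice, with a median of 0.56, and of the 12 choroid plexus markers 4 were, with a median of 2.11. Their part in the values of Grn and Rps6ka1 was not tested. With a choroid plexus score as a covariate, 0 of all genes tested were called, and the log2 fold changes of Grn and Rps6ka1 were 0.72 and 0.27. The score was -1.67 to 0.43 with void and 0.60 to 1.01 with DHT. Without overlap between the groups, this fit can hardly tell the score from treatment.

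Of 19 further genes, most of them encoding granins or neuropeptides, 0 were called, and the median was -0.08. Those with the lowest p were the granin genes Scg2 (-0.13, adjusted p = 0.444) and Scg5 (-0.21, adjusted p = 0.504, both edgeR's quasi-likelihood test). Of 10 genes of the GDNF family, another group of neuronal growth factors with their receptors, 7 were tested, 0 were called and the median was -0.04. The lowest p there belonged to the adhesion molecule gene Ncam1 (-0.10, adjusted p = 0.419) and to Nrtn, the ligand neurturin (0.66, adjusted p = 0.472, both edgeR's quasi-likelihood test).

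**Figure D5:**
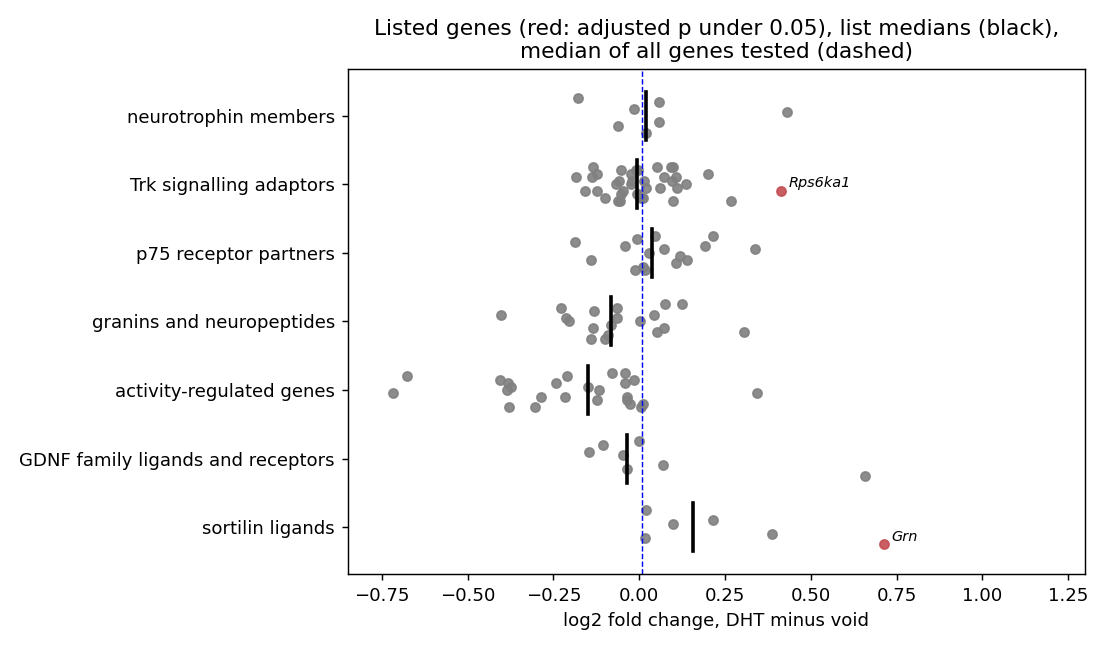
Log2 fold change of DHT- against void-treated mice for each tested gene of 7 lists, with genes at an adjusted p under 0.05 in red and named, list medians as black bars and the median of all genes tested, 0.01, as a dashed line. The red points are Rps6ka1 and Grn, and no point among the members is red.

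The genes whose level went most closely with each member over the 10 libraries, with group means removed, were found among 11911 genes at 5 CPM or more and are given as a description. So many comparisons over 10 libraries give high values readily. For Bdnf they were Pomk, Zfp382 and Jtb (Pearson r of 0.86, 0.85 and 0.85), and for Ntf3 they were Susd1, Lpl and Gm44950 (0.90, 0.90 and 0.88). For Ntrk2 they were Suds3, Syt7 and Gstm1 (0.92, 0.91 and 0.91), and for Ntrk3 they were Aqr, Grin2a and Nsd1 (0.97, 0.97 and 0.96). For Ngfr they were Zfp414, Wdr74 and Kctd10 (0.95, 0.94 and 0.91), for Sort1 Klhl29, Ppp1r12b and Tnfrsf21 (all 0.97), and for Vgf Ubqln2, Nup210 and Sema4a (0.98, 0.98 and 0.97). The genes with the lowest r were Bmp1 for Bdnf (-0.87), Fam173b for Ntf3 (-0.88), Gmpr2 for Ntrk2 (-0.98), Camk1 for Ntrk3 (-0.93), Pvt1 for Ngfr (-0.96), Cav2 for Sort1 (-0.98) and Sarnp for Vgf (-0.97). Among the members themselves the highest r was that of Ngfr with Vgf, 0.65, and the lowest that of Bdnf with Ngfr, -0.48. Bdnf with Ntrk2 gave -0.48 as well and Ntf3 with Ntrk3 gave -0.05, over the same 10 libraries. Ngfr and Vgf were also the members that went most closely with the GC slope of the library (Pearson r of 0.74 and 0.87), while Bdnf gave -0.23. The part of the GC slope in the values of r was not tested.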

How the data were processed

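Hippocampal mRNA libraries of 10 mice were sequenced by the authors, who trimmed reads with HTStream, aligned them with STAR 2.7.10b and deposited raw counts per gene. The paper names mm10 and the submitters' processing notes GRCm39. The annotation release and the handling of strand are not given in the sources used here. The reference was used for names (51948 of 56884 genes matched), exon lengths, GC content and neighbours, and no gene coordinates are printed apart from the RefSeq promoter window.

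Groups came from the labels. The members and gene lists were chosen with earlier results of these data known. The model was fitted with edgeR 4.0.16 in R 4.3.3 (TMM, filterByExpr, quasi-likelihood test, Benjamini-Hochberg adjustment over 17622 genes) without covariates. SE is the absolute log2 fold change over the square root of F. Single genes were also compared by two-sided exact permutation tests of log2 CPM (prior count 2), whose smallest p is 0.00794. Per the paper's methods, treatment was assigned at random among littermates and mice shared cages only with their own group, so cage and treatment cannot be told apart. Genes named were the members, related neurotrophin genes, called list genes or else those with the 2 lowest p, and the most similar genes. Some genes of the plan, and 1 list that needs them, are not reported here. Other genes named as markers, activity genes or calls under other scalings, and the ratio of Grn to Sort1, were chosen after their values were seen. Alternatives were DESeq2 1.42.0 and limma-voom (limma 3.58.1), other scalings and filters, a choroid plexus covariate and leaving out each mouse. GC offsets (GC known for 98.1% of genes tested) and leaving out DHT-treated mice 5 and 6 together were added after seeing the data. The tests were tested on simulated data first.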

Additional observations from a re-analysis of the deposited data

Results flagged for a closer look

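In groups of 5 mice, 6 of 58 sets of values had an end value whose gap to its neighbour exceeded 0.71 of the range, where chance gives about 2.90. No member was among them. For Ntf5, void-treated mouse 9 was high (gap 0.723 of the range) and DHT-treated mouse 2 low (0.824). For Sorl1, void-treated mouse 5 was low (0.839), at 489 CPM against a group median of 647 CPM. For Nradd, void-treated mouse 10 was low (0.801), at 8 counts. For Scg5, void-treated mouse 5 was high (0.944), at 236 CPM against a median of 144 CPM. For Grn, DHT-treated mouse 2 was low (0.784), at 61.6 CPM, and still above all void-treated mice.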

How the results depend on the processing

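Under all 21 alternatives and the fold limit, 0 members were called higher and 0 lower. Signs near 0 turned: the log2 fold change of Bdnf was -0.00605 with DESeq2, -0.00615 with DESeq2's size factors, -0.000122 with upper-quartile factors and -0.0553 with the choroid plexus covariate. That of Ntf3 was 0.0873 with factors from neuron markers and 0.0570 with the covariate, that of Sort1 0.0394 with neuron factors, and that of Vgf -0.0324 with GC offsets and -0.17 without DHT-treated mice 5 and 6. Neuron factors moved the median of all genes to 0.11. Leaving out single mice gave -0.0208 (without DHT-treated mouse 2) to 0.0584 for Bdnf, -0.12 to 0.0190 for Ntf3 and -0.0910 (without DHT-treated mouse 6) to 0.12 for Vgf, while Ntrk2 (0.01 to 0.08), Ntrk3 (-0.26 to -0.16), Ngfr (0.29 to 0.54) and Sort1 (-0.10 to -0.05) kept their sign. The lowest adjusted p of any member was 0.0714 (Ntrk3 without void-treated mouse 5, edgeR). Of all genes, 1500 were higher and 7 lower with neuron factors, 0 and 0 with the covariate, and 382 and 4 with the fold limit. The covariate did not overlap between the groups, so the fit that holds it can hardly tell it from treatment. Genes called lower numbered 266 with DESeq2, 262 with GC offsets and 112 without DHT-treated mice 5 and 6. Leaving out single mice gave 351 (without void-treated mouse 11) to 1072 (without void-treated mouse 9) higher and 5 to 77 lower (without void-treated mouse 11 and DHT-treated mouse 2). The causes were not tested. Of 21 alternatives, Grn was called in 20 and Rps6ka1 in 12. No paired analysis was made, because the labels give neither litters nor pairs of mice. Depth limits Ngfr, Ntf5 and Nradd most, with the counts given above.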
